A study of Mus musculus with 8 samples.

Results

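Gene expression 6 h after T cell receptor (TCR) stimulation was set against expression 1 h after it, in cells that received no interferon beta (IFNb). The pair is 2 of the 8 arrays of the series, chosen by their labels: the array labelled 6 h of TCR stimulation minus the array labelled 1 h. All 8 arrays carried RNA of CD8+ T cells taken from spleens of OT-I TCR transgenic mice on the C57BL6 background. OT-I cells bear a transgenic receptor for the ovalbumin peptide SIINFEKL on H-2Kb, and the cells were stimulated with streptamers, multimers of H-2Kb loaded with that peptide. The groups used here are TCR 6 h (1 array), TCR 1 h (1 array), IFNb for 1 h with TCR for 6 h (1 array), IFNb for 1 h with TCR for 1 h (1 array), and untreated cells (2 arrays). IFNb alone for 2 h and for 7 h (1 array each) entered the linear model only. Cells were purified magnetically, and the labels give a purity by flow cytometry between 90 and 97%, so other spleen cells may have been present. The labels do not say whether IFNb was given before TCR stimulation or stayed during it. The labels name no antigen-presenting cells and no added costimulation. The labels do not say whether the samples came from separate mice or cultures, so spread between arrays may be technical. With the untreated arrays averaged, no condition in the linear model had a replicate. Its p-values measure how far the arrays depart from additive effects of IFNb and TCR time, and not a spread between replicates. IFNb for 2 h and for 7 h counts as the same treatment in it.

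TCR engagement activates the kinases Lck and ZAP-70, and these reach the nucleus through calcineurin and NFAT, through the MAP kinases to SRF and AP-1, and through PKC-theta to NF-kB. Immediate early genes are transcribed from factors already present in the cell and are often shut off again by feedback regulators such as dual-specificity phosphatases and mRNA decay proteins. Later, a T cell leaving quiescence raises its supply of amino acids, nucleotides and glucose, builds ribosomes, and gives up transcripts of the naive state, among them the IL-7 receptor and the receptors for lymph node entry and exit.

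The 2 arrays had 1 sample per group, so differences within the pair have no replicate check, and they are given as log2 differences of scaled signal (75th percentile of each array at about 1500, values below 15 set to 15). The test over arrays was a limma linear model that took TCR 6 h against TCR 1 h across the cells with and without IFNb (7 samples, 3 residual degrees of freedom), and "rose" and "fell" are used only of genes with an adjusted p below 0.05 in it. The 6 h arrays were on slide 2 and the 1 h arrays on slide 1, each slide with its own untreated array. A limma model with an interaction of IFNb and TCR time, which gives the contrast in cells without IFNb alone on 1 residual degree of freedom, called 0 genes (5718 at an unadjusted p below 0.05, smallest adjusted p 0.108). The only residual of that interaction model is the difference between IFNb for 2 h and for 7 h, so its error is a difference of treatments. The 2 untreated arrays differed by about the noise between repeated spots and were counted as 1 sample. Before the results, 1 conflict in the deposit must be stated: TCR 1 h and IFNb with TCR 1 h carry in the value table the signal of each other's scanner file, and the value table's naming is kept. Under that naming Irf7, an interferon-induced transcription factor, had a signal of 1723 at TCR 1 h and 28641 at IFNb with TCR 1 h, with 1889 and 1857 in untreated cells. Under the scanner files' naming the differences of Iigp1, Gbp2, Ifi44, Eomes, Slfn2, Tgfb1, Tnfsf9, Tnfsf14, Sema7a and Gadd45b change sign. The signal of 1 gene's probe is not comparable with that of another gene. Below, the median of a gene list is followed by its lowest and highest value over 8 other settings where one of them changed its sign or moved it by over 1.5 times. A gene is given by its brightest probe, and where its probes lay at least 2 apart on the log2 scale their lowest and highest differences are given.

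Large parts of the transcriptome differed between 6 h and 1 h. Of 19476 genes, 3303 (17.0%) were at least 2-fold higher at 6 h and 3534 (18.1%) at least 2-fold lower, 35.1% in all. The untreated arrays of the same 2 slides differed by at least 2-fold at 291 of 19449 genes (1.50%), 1.02% higher and 0.473% lower on slide 2. At least 8-fold differences were found at 238 genes in the higher and 442 in the lower direction, against 9 genes between the untreated arrays. The median difference of all genes was 0.08. With each array set against the untreated array of its own slide, 35.6% of genes were at least 2-fold apart (16.7% higher and 18.9% lower), and 6789 of the 6837 called genes kept their sign. Under the scanner files' naming of the 1 h array the count was 8424. With each array scaled to its median in place of its 75th percentile, 4143 genes were higher and 2941 lower, 58.5% higher against 48.3%, and the median of all genes was 0.26. In the limma model 3347 of 19358 genes rose (17.3%) and 3133 fell (16.2%), and 4720 rose and 2397 fell with arrays scaled to their medians (66.3% higher against 51.7%). With slide as a block 1721 rose (8.93%) and 1378 fell (7.15%). Among the genes described here with a call, that fit gave no call for Il12rb1, Csf2, Gzmb, Gzmc, Cflar, Acaca, Cdk6, Spred1, Il2, Fyn, Xcl1, Zc3h12d, Hif1a, Foxp1, Malt1, Rab27a, Plcg1, Junb, Ppp3r1, Nfatc3, Pfkfb4, Pfkm, Mxd3, Bcl2l11, Mxi1, Lair1, Scd1, Rrm2, Mvk, Il10, Hspa1a, Hspa1b, Nfkbiz, Bmf, Elovl6, Dusp1, Fosb, Nr4a3, Cd40lg, Birc3 and Nfil3 (adjusted p between 0.0513 for Birc3 and 0.401 for Gzmc).

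**Figure D1:**
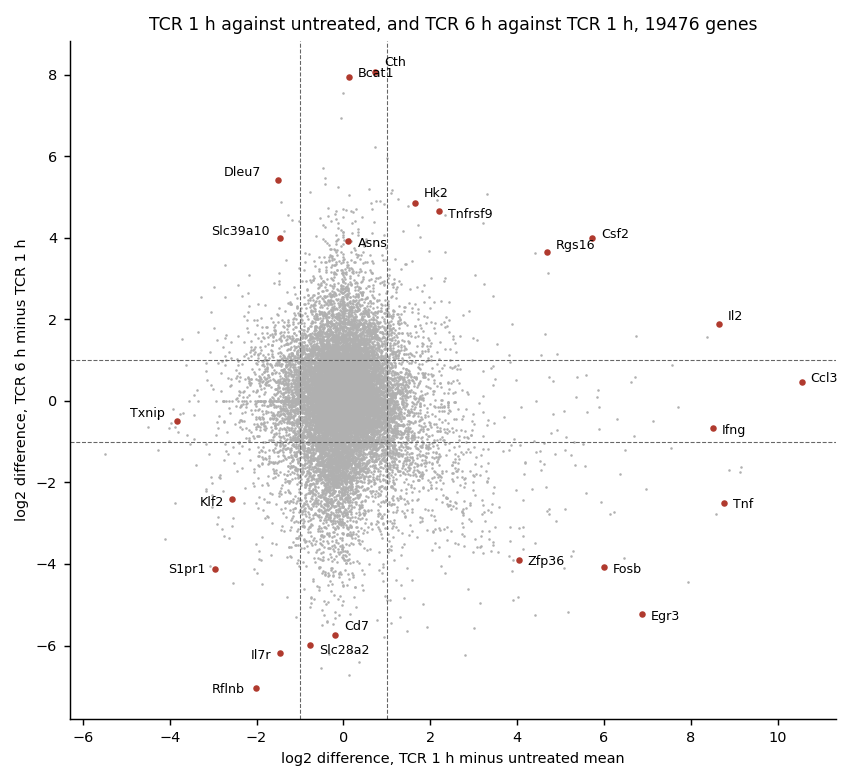
Each point is 1 gene; the x axis is the log2 difference of TCR 1 h minus the untreated mean and the y axis that of TCR 6 h minus TCR 1 h, with dashed lines at 2-fold. Cth and Bcat1 lie at the top with little difference at 1 h, Il7r and Rflnb at the bottom, and Egr3, Fosb and Tnf at the lower right; both axes share the TCR 1 h array.

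The course over both times was followed with untreated cells as the start. Of the genes higher at 6 h than at 1 h, 83.7% were within 2-fold of untreated cells at 1 h, the share of all genes being 83.6%, and of the genes lower at 6 h 74.4% were. At 6 h 41.8% of genes were at least 2-fold from untreated cells (20.8% above and 21.0% below), against 16.4% at 1 h. At 1 h, 1677 genes were at least 2-fold above untreated (8.60%) and 1526 below (7.82%). Of the genes above untreated at 1 h, 584 (34.9%) were at least 2-fold lower again at 6 h, against 18.1% of all genes. Another 808 stayed within 2-fold of their 1 h level. The 280 that were higher still (16.7%) were near the 17.0% of all genes. Among the 584, 406 were back within 2-fold of untreated at 6 h, 92 were still above it and 86 were below it. Of the genes down at 1 h, 322 (21.2%) were lower still at 6 h, against 18.1% of all genes. The 258 that were higher (17.0%) matched the 17.0% of all genes, and 210 of the 258 were within 2-fold of untreated. Both steps share the TCR 1 h array, so a high or low value there enters each with opposite sign.

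Each class is shown by named members. Slc39a10, a zinc importer, was below untreated at 1 h and above it at 6 h, with 3399.7 at 6 h, 214 at 1 h and 607 and 571 in untreated cells (adjusted p = 0.00500). Lpl, lipoprotein lipase, had 319 at 6 h and 29.3 at 1 h, with 71.7 and 75.5 in untreated cells (adjusted p = 0.00325). In the pair Slc39a10 and Lpl were thus below untreated at 1 h and above it at 6 h, and the adjusted p values do not test the dip. At IFNb with TCR 1 h Slc39a10 had 329, but Lpl had 69.7, near untreated. The 1 h value of Lpl was also near the lowest signal well above background on its array (26.3), so its dip rests on 1 dim value. Csrp1, a LIM domain protein of the actin cytoskeleton, ran the other way, with 1048 at 6 h, 32890 at 1 h and 9290.2 and 9078 in untreated cells (adjusted p = 0.00194). Lad1, a basement membrane protein also found in epithelia, was higher at each step, with 7037 at 6 h, 211 at 1 h and 43.0 and 42.3 in untreated cells (adjusted p = 0.00118). S1pr4, a sphingosine 1-phosphate receptor of lymphocytes, was down at 1 h and stayed there, with 530.3 at 6 h, 902 at 1 h and 5922 and 5710 in untreated cells. Cd160 was up at 1 h and within 2-fold at 6 h, with 9013 at 6 h, 16240 at 1 h and 155 and 159 in untreated cells, but 13802 at 6 h and 1191 at 1 h with IFNb. Slamf7, a receptor of the SLAM family, had 100380 at 6 h and 66893 at 1 h, with 652 and 628 in untreated cells.

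Transcription factors of the immediate early response were lower at 6 h as a list. Of 30 members, 23 were at least 2-fold lower at 6 h than at 1 h and 0 higher, against 18.1% and 17.0% of all genes, with a median difference of −1.79 (−2.09 with quantile normalization to −1.19 under the scanner files' naming). In the limma model 16 fell and 1 rose (0 up and 10 down with slide as a block), against 16.2% and 17.3% of all genes. Egr3, a zinc finger factor induced through calcineurin, had a signal of 4095 at 6 h and 154360 at 1 h, with 1326 and 1298 in untreated cells, and was 37.7-fold lower at 6 h (limma -4.68 ± 0.47, adjusted p = 0.00115). Its probe lies at chr14:70481979-70482038 of build mm9. Egr1 stood at 46330 at 6 h and 306270 at 1 h, with 4053 and 4055 in untreated cells. Egr2, which restrains effector genes, stood at 79887 at 6 h and 275690 at 1 h. All 3 were thus well above untreated at 6 h, though Egr3 only by 1.64 on the log2 scale. Fos, a subunit of AP-1, fell to 3363 at 6 h, against 48727 at 1 h and 551 and 564 in untreated cells (adjusted p = 0.00137). Fosb had 641 at 6 h and 10824 at 1 h (adjusted p = 0.0220), and Klf10 746 at 6 h and 21941 at 1 h, the 6 h value below the untreated 1453 and 1491. Nr4a3, an orphan nuclear receptor of the TCR response, had 219 at 6 h and 4725 at 1 h, and the 3 genes fell together with Fos.

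A few immediate early transcripts were still high at 6 h. Nr4a1, the receptor also called Nur77, had 371630 at 6 h and 607130 at 1 h, both far above the untreated 20089 and 20258 (difference -0.71, adjusted p = 0.336). Myc, which drives cell growth, had 132370 at 6 h and 180850 at 1 h, with 2227 and 2350.4 in untreated cells (difference -0.45, adjusted p = 0.963). Junb, an AP-1 subunit, lay between these patterns, with 113940 at 6 h and 230610 at 1 h (adjusted p = 0.0399). Nfil3 was the only member that rose in the limma model (adjusted p = 0.0462), with a difference of 0.91 in the pair. It is named here outside the rule for named genes, after its value was seen.

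Promoter windows show which sequence elements stand near these genes. RefSeq windows of 300 bases (250 upstream and 50 downstream of the start, build GRCm38.p6) were searched on both strands. The CArG box, the site of SRF, was in 16.1% of the windows of the immediate early list and in 1.63% of all windows, and TGACGTCA, the cyclic AMP response element (CRE), in 6.45% and 1.79%. The CArG box was in 5 of the list's 31 windows and the CRE in 2. These are counts of letters and not of bound sites. The list was drawn up from known immediate early genes, so these shares are no independent evidence. The windows with a CArG box or a CRE are shown for Egr2 (chr10:67537454-67537543, plus strand), Srf (chr17:46556175-46556264, minus strand), Btg2 (chr1:134079274-134079361, minus strand) and Maff (chr15:79347451-79347519, plus strand), 5′ to 3′ with the element in capitals. The first pair holds the CArG box (Srf 2 of them) and the second pair the CRE.
Egr2: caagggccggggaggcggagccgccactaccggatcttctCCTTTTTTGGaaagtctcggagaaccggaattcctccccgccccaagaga
Srf: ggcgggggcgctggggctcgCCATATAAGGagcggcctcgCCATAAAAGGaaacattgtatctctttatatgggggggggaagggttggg
Btg2: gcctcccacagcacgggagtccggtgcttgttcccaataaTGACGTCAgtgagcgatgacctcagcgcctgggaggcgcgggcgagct
Maff: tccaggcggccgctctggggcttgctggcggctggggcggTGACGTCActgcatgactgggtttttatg
Btg2, an antiproliferative gene, had 22607 at 6 h and 193460 at 1 h. Maff, a small Maf factor, had 8327 at 6 h and 36119 at 1 h, and Srf itself 6039 at 6 h and 13609 at 1 h.

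Regulators that damp MAP kinase signalling and mRNA stability split. Of 27 measured members, 13 were at least 2-fold lower and 5 higher at 6 h, against 18.1% and 17.0% of all genes. The higher members were thus near the share of all genes. The median difference was −0.87 (−1.13 with quantile normalization to −0.39 under the scanner files' naming). The limma model called 8 down and 4 up (1 up and 5 down with slide as a block). Dusp10, a phosphatase of stress kinases, had 119 at 6 h and 3358 at 1 h, with 8219 and 8214 in untreated cells, so it was lower at each step (adjusted p = 0.00544). Dusp1, of the same family, had 630.0 at 6 h and 7791 at 1 h (adjusted p = 0.0140). Zfp36, which encodes tristetraprolin and destabilises cytokine mRNAs, was back near untreated, with 5444 at 6 h, 80994 at 1 h and 5004 and 4902 in untreated cells (adjusted p = 0.000834). Rgs16, a regulator of G protein signalling, went the other way, with 79837 at 6 h and 6389.6 at 1 h, from a low untreated level of 253 and 245 (adjusted p = 0.00132). Spred1, a Ras inhibitor, and Zc3h12d, an mRNA decay protein, rose too (adjusted p = 0.0147 and 0.0375). Rgs1 had 39215 at 6 h and 8010.3 at 1 h, but 38263 at 6 h and 28567 at 1 h with IFNb, and did not pass (adjusted p = 0.0802). Spry1, a Sprouty inhibitor of receptor tyrosine kinase signalling, had 52319 at 6 h and 28473 at 1 h, with 157 and 143 in untreated cells, and 57752 at 6 h and 9721 at 1 h with IFNb (adjusted p = 0.0553).

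In the NF-kB list 10 of 19 members with a difference were at least 2-fold lower and 2 higher, against 18.1% and 17.0% of all genes. The median was −1.06 (−1.24 with quantile normalization to −0.18 under the scanner files' naming), and limma called 7 down and 2 up (1 up and 4 down with slide as a block). Among the members with the largest differences were Nfkbid, Bcl3 and Nfkbiz, which encode nuclear IkB proteins. Nfkbid had 11735 at 6 h and 65194 at 1 h, with 1027 and 1111 in untreated cells (adjusted p = 0.00970). Nfkbiz had 12786 at 6 h and 61120 at 1 h, and Bcl3 1314 at 6 h and 6771 at 1 h, the last below its untreated 4048 and 4161. Malt1, a paracaspase that acts between the TCR and NF-kB, rose, with 43592 at 6 h and 18844 at 1 h (adjusted p = 0.0154). Nfkb1, which encodes p50, was 3.43-fold higher by its brightest probe, but the median over its 4 probes was −0.34, so its direction is uncertain.

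Of 12 members of the NFAT and calcineurin list 3 were at least 2-fold lower and 1 higher, shares near those of all genes, with a median of −0.17 (−0.21 after normexp and quantile normalization to 0.0152 scaled to array medians). The limma model called 5 down and 1 up (1 up and 1 down with slide as a block). Ppp3ca, the catalytic subunit of calcineurin, fell, with 1703 at 6 h, 9540.3 at 1 h and 8347 and 8836 in untreated cells (adjusted p = 0.00174). Nfatc3 fell, with 1478 at 6 h and 3161 at 1 h. Rcan1, a calcineurin inhibitor that NFAT induces, rose, with 1229 at 6 h and 415 at 1 h (adjusted p = 0.00295). Ppp3r1, the regulatory subunit, was lower by its brightest probe and 0.29 higher by the median of its 3 probes.

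**Figure D2:**
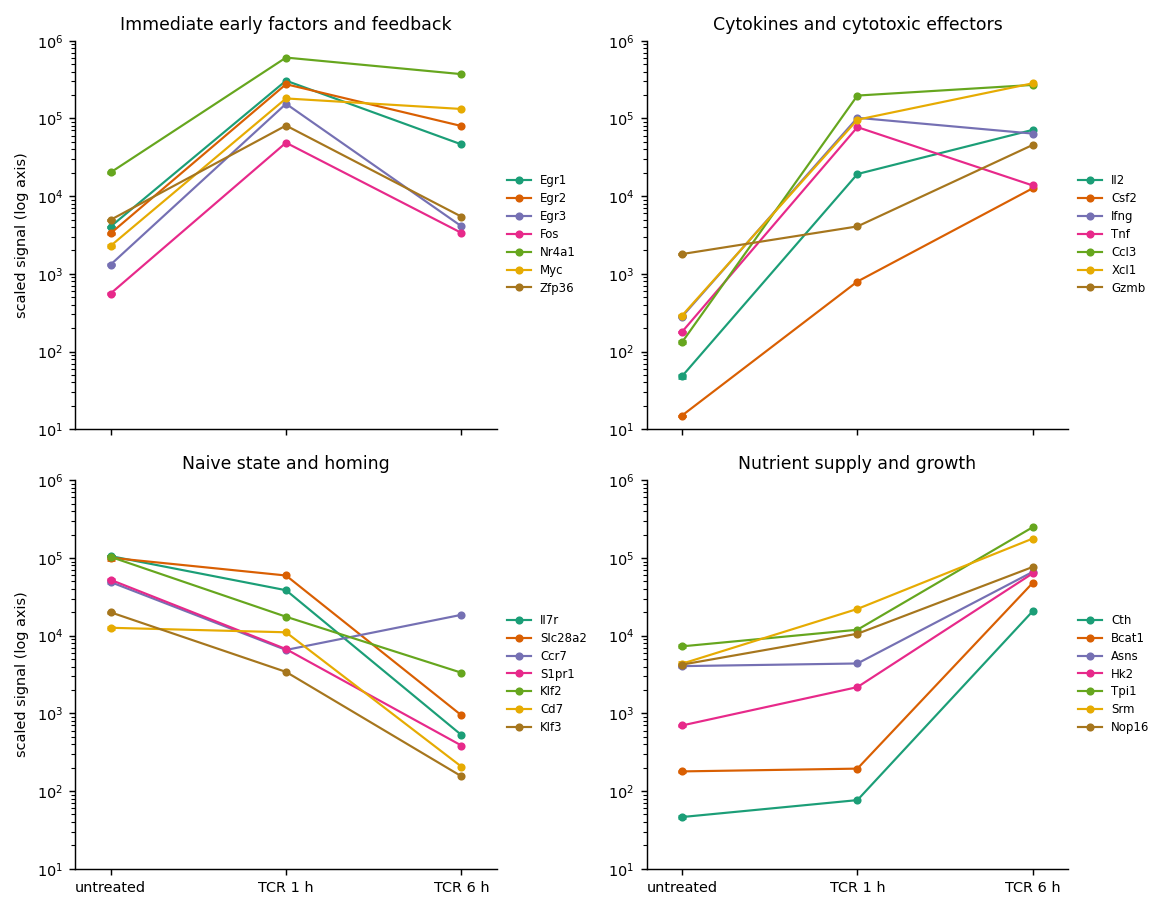
Scaled signal (log axis) of 7 genes in each of 4 groups over untreated cells (line at the geometric mean of the 2 arrays, ticks at each array), TCR 1 h and TCR 6 h (1 array each); the horizontal spacing is not to time, and levels of different genes are not comparable. Egr3, Fos and Zfp36 peak at 1 h, Il2 and Csf2 are higher at each step, Il7r and S1pr1 lower at each, and Cth, Bcat1 and Asns part from untreated cells at 6 h.

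Cytokines and chemokines did not share a direction. Of 29 members with a difference, 9 were at least 2-fold higher at 6 h and 7 lower, against 17.0% and 18.1% of all genes, with a median of 0.09 (0.00110 with quantile normalization to 0.63 under the scanner files' naming), and limma called 7 up and 2 down (2 up and 0 down with slide as a block). Il2, the T cell growth factor, had 71358 at 6 h and 19252 at 1 h, with 45.9 and 50.1 in untreated cells, and was 3.71-fold higher at 6 h. With IFNb the values were 57190 at 6 h and 1133 at 1 h, and limma gave 3.77 ± 0.93 (adjusted p = 0.0209). Csf2, which encodes GM-CSF, had 12656 at 6 h and 796 at 1 h, with the untreated arrays at the floor of 15, and rose (adjusted p = 0.00992). The chemokine Xcl1 had 283540 at 6 h and 96340 at 1 h (adjusted p = 0.0217). With slide as a block these 3 calls were lost (adjusted p = 0.159 for Il2, 0.0521 for Csf2 and 0.131 for Xcl1). Tnfsf8, which encodes CD30 ligand, was within 2-fold of untreated at 1 h and 52.6-fold higher at 6 h, with 5823 at 6 h and 111 at 1 h (adjusted p = 0.00186). Ccl9 had 7360.4 at 6 h and 354 at 1 h (adjusted p = 0.000790). Both were thus late transcripts here.

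Ifng, Ccl3 and Ccl4 were within 2-fold between 6 h and 1 h. Ifng, the effector cytokine interferon gamma, had 63799 at 6 h and 101930 at 1 h, with 287 and 274 in untreated cells, a difference of -0.68 (adjusted p = 0.566). Ccl3 had 270020 at 6 h and 196930 at 1 h, with 135 and 128 in untreated cells. Ccl4, the related chemokine, had 551340 at 6 h and 367580 at 1 h. These 3 were high on both arrays. Tnf was lower at 6 h, with 13707 at 6 h and 77278 at 1 h, and 176 and 181 in untreated cells. With IFNb it had 17779 at 6 h and 27928 at 1 h, and it did not pass (adjusted p = 0.0780). Tnfsf14, or LIGHT, had 37644 at 6 h and 116480 at 1 h, but 43781 at 6 h and 24309 at 1 h with IFNb. Cd40lg was well above background at 1 h only, at 544, and was at least 21.7-fold lower at 6 h (adjusted p = 0.0146). Il10 fell, with 101 at 6 h, 470.0 at 1 h and 284 and 280.1 in untreated cells.

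Receptors of activated T cells also split, with 7 of 31 at least 2-fold higher and 6 lower, against 17.0% and 18.1% of all genes, with a median of 0.13 (−0.30 with quantile normalization to 0.52 under the scanner files' naming), and 8 up and 3 down in limma (5 up and 3 down with slide as a block). Tnfrsf9, the costimulatory receptor 4-1BB, had 146660 at 6 h and 5778 at 1 h, with 1341 and 1189 in untreated cells, and was 25.4-fold higher (adjusted p = 0.000821, 3 probes from 1.17 to 4.67). Il2ra, the high-affinity chain of the IL-2 receptor, had 21428 at 6 h and 909.9 at 1 h, with 182 and 179.7 in untreated cells (adjusted p = 0.00140, 4 probes from 2.31 to 5.03). Il12rb1, Cd200 and Il15ra, of which the last presents IL-15, were 16.9-fold higher, 16.9-fold higher and 29.0-fold higher at 6 h, and all 3 rose (adjusted p = 0.00590, 0.000995 and 0.00200). Cd69, the early activation marker that holds T cells in tissue, had 209520 at 6 h and 360620 at 1 h, with 13062 and 13213 in untreated cells, and did not pass (adjusted p = 0.550). The receptors for IL-18 and TNF were lower. Il18r1 had 374 at 6 h and 2978 at 1 h (adjusted p = 0.00146), and Tnfrsf1b, or TNFR2, 1915 at 6 h and 23623 at 1 h (adjusted p = 0.00272, 2 probes from -3.63 to -0.02). Il2rb, the shared chain of the IL-2 and IL-15 receptors, had 8804 at 6 h and 24198 at 1 h and did not pass (adjusted p = 0.127). Il21r and Sema7a were lower at 6 h in the pair (-2.01 and -1.70) and close to level with IFNb (0.09 and 0.25).

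Among 12 inhibitory receptors 2 were at least 2-fold higher and 4 lower, against 17.0% and 18.1% of all genes. The median was 0.14 (−0.25 after normexp and quantile normalization to 0.33 scaled to array medians), and limma called 2 up and 3 down (1 up and 1 down with slide as a block). Lag3, which binds class II molecules, had 1935 at 6 h and 70.4 at 1 h, with 21.4 and 29.6 in untreated cells, and rose (adjusted p = 0.00524). Cd96, a receptor of nectin-like ligands, fell, with 1928 at 6 h and 12596 at 1 h (adjusted p = 0.00113). Klrg1 and Lair1 were dim and lower, with 145 and 35.7 at 6 h, against 391 and 111 at 1 h, and only Lair1 fell (adjusted p = 0.118 for Klrg1 and 0.0302 for Lair1).

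Of 19 measured cytotoxic genes 6 were at least 2-fold higher and 6 lower, against 17.0% and 18.1% of all genes. The median was −0.08 (−0.23 by the median of a gene's probes to 0.37 under the scanner files' naming), and limma called 5 up and 2 down (2 up and 2 down with slide as a block). Gzmb, the protease granzyme B, had 45686 at 6 h and 4077 at 1 h, with 1811 and 1783 in untreated cells, and rose (adjusted p = 0.00640, and 0.0599 with slide as a block). Gzmc had 18737 at 6 h and 2125 at 1 h, with 75.2 and 86.7 in untreated cells (adjusted p = 0.0444, and 0.401 with slide as a block). Gzma, granzyme A, fell, with 89.6 at 6 h and 583 at 1 h, and 537 and 518 in untreated cells. Its adjusted p in limma was 0.0118, and 0.0256 with slide as a block. It is named here outside the rule for named genes, after its value was seen. Granzyme genes are near-identical copies of each other in part, so their probes may share signal. The protease inhibitors that shield cytotoxic cells, Serpinb9 and Serpinb6b, were 23.0-fold higher and 14.8-fold higher (adjusted p = 0.00125 and 0.000913). Rab27a, which docks lytic granules, rose with a difference of 1.19 (adjusted p = 0.0288). Ctsw, cathepsin W, fell, with 2059 at 6 h and 39524 at 1 h, and 33270 and 34501 in untreated cells (adjusted p = 0.00179). Fasl, the death ligand, had 792 at 6 h and 2626 at 1 h, and 980.4 at 6 h and 831 at 1 h with IFNb.

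The naive state and homing list had the lowest median of the 23 lists under the value table's naming. Of 31 members 23 were at least 2-fold lower at 6 h and 4 higher, against 18.1% and 17.0% of all genes. The median was −3.30 (−3.31 with only genes above background on both arrays to −2.15 after normexp and quantile normalization), and limma called 22 down and 1 up, 21 and 0 with slide as a block. Il7r, the IL-7 receptor chain that sustains naive T cells, had 526 at 6 h and 38430 at 1 h, with 104800 and 106570 in untreated cells, and was 73.0-fold lower at 6 h (limma -6.26 ± 0.28, adjusted p = 0.000531). Its probe lies at chr15:9435976-9436035 of mm9. The nucleoside transporter Slc28a2 had 944 at 6 h and 59460 at 1 h, with 106460 and 95300 in untreated cells (adjusted p = 0.000531). Cd7 had 206 at 6 h and 11049 at 1 h, with 12154 and 13116 in untreated cells (adjusted p = 0.000720). Slc28a2 and Cd7 were thus still near untreated at 1 h. Nsg2, a vesicle protein best known from neurons, had 290.2 at 6 h and 12475 at 1 h.

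Some genes of lymphocyte trafficking were below untreated already at 1 h. S1pr1, the receptor that lets T cells leave lymph nodes, had 385 at 6 h and 6715 at 1 h, with 52876 and 51852 in untreated cells (adjusted p = 0.00150). Klf2, a factor that drives S1pr1, had 3332 at 6 h and 17524 at 1 h, with 100710 and 105970 in untreated cells (adjusted p = 0.00254, 2 probes from -2.39 to -0.17). Klf3, a related repressor, had 155 at 6 h and 3416 at 1 h, with 19719 and 20256 in untreated cells (adjusted p = 0.00111). Ccr7, the chemokine receptor for lymph node entry, did not follow the list. It had 18548 at 6 h and 6545 at 1 h, and 49800 and 48101 in untreated cells, so it was 2.83-fold higher than at 1 h and still below untreated, and it did not pass in limma (adjusted p = 0.138). The other members against the list were Bach2 and Foxp1, factors of quiescence, and Slfn2, with differences of 2.06, 1.23 and 1.87, of which Foxp1 alone rose (adjusted p = 0.0122). Txnip, a brake on glucose uptake, had already been low at 1 h, with 2132 at 6 h, 2982 at 1 h and 42003 and 43589 in untreated cells. Bcl2 was within 2-fold, with 9695 at 6 h and 7943 at 1 h. In bulk RNA, fewer cells with a transcript and less of it per cell cannot be told apart.

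Of 29 transcription factors of effector and memory cells, 6 were at least 2-fold higher and 9 lower, against 17.0% and 18.1% of all genes. The median was −0.33 (−1.25 under the scanner files' naming to −0.15 scaled to array medians), and limma called 4 up and 8 down (3 up and 3 down with slide as a block). Zbtb32, a repressor of the BTB family, had 5895 at 6 h and 386 at 1 h, with 339.7 and 346 in untreated cells (adjusted p = 0.000754). Zeb2, a driver of terminal effector cells, had 5315 at 6 h and 369.7 at 1 h (adjusted p = 0.00121). Batf3 and Hif1a, the oxygen-sensing factor, rose with differences of 1.94 and 1.32 (adjusted p = 0.00521 and 0.0328). Ets1 fell, with 9655 at 6 h, 50249 at 1 h and 101890 and 107160 in untreated cells (adjusted p = 0.00131). Tbx21, or T-bet, had 6014 at 6 h and 12608 at 1 h, both far above the untreated 273 and 275 (adjusted p = 0.0942). Irf4, which scales with TCR strength, held its level, with 102290 at 6 h and 66141 at 1 h, and 1355 and 1395 in untreated cells. Eomes had 787 at 6 h and 253 at 1 h, but 759 at 6 h and 1933 at 1 h with IFNb. Irf8 had 41941 at 6 h and 7097 at 1 h in cells without IFNb, and 38320 at 6 h and 21265 at 1 h with it, and did not pass (adjusted p = 0.0561).

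**Figure D3:**
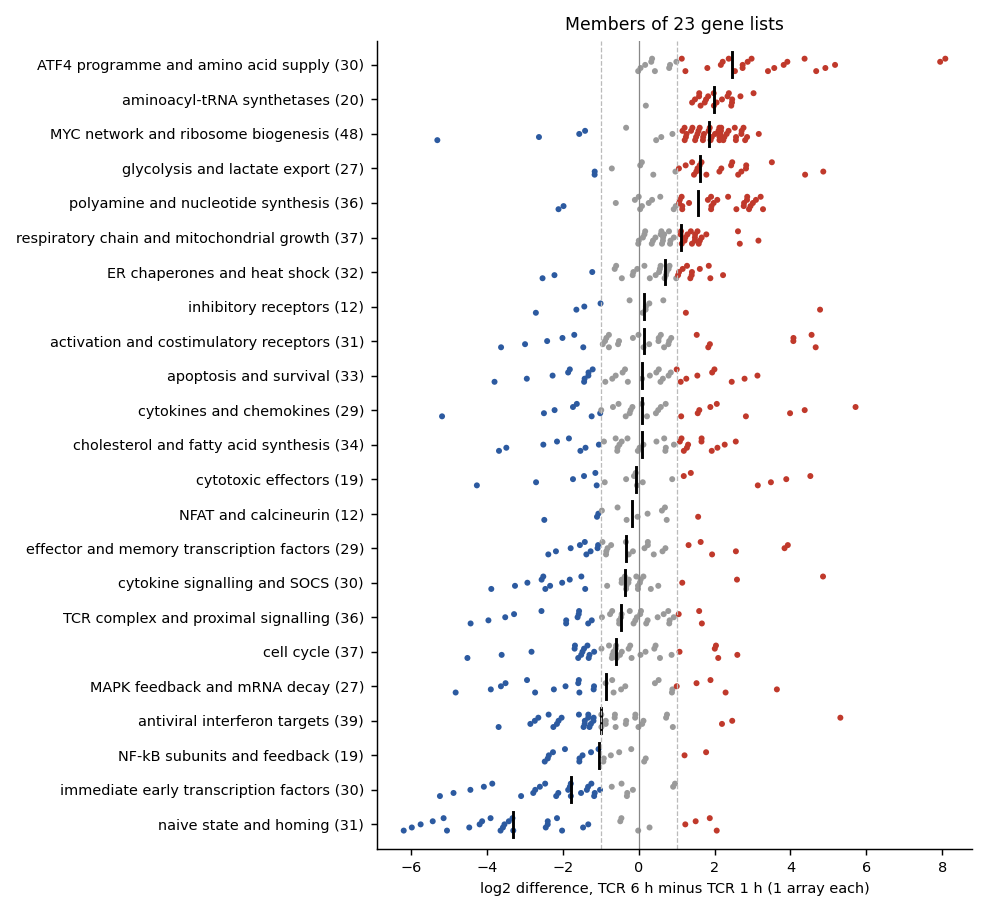
Each point is 1 member of a list and its log2 difference of TCR 6 h minus TCR 1 h (1 array each), red at least 2-fold higher, blue at least 2-fold lower and grey between; black bars are list medians, dashed lines mark 2-fold, and the number of members is in brackets. Medians run between −3.30 for naive state and homing and 2.46 for the ATF4 programme.

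The highest median of the 23 lists belonged to the ATF4 programme, the response by which ATF4 raises amino acid synthesis and uptake. Of 30 members 21 were at least 2-fold higher at 6 h and 0 lower, against 17.0% and 18.1% of all genes. The median was 2.46, and limma called 23 up and 0 down (16 up and 0 down with slide as a block). Cth, cystathionine gamma-lyase, which makes cysteine, had 20724 at 6 h and 76.5 at 1 h, with 48.0 and 44.6 in untreated cells, and was 271-fold higher (limma 8.01 ± 0.39, adjusted p = 0.000531). Its probe lies at chr3:157557667-157557726 of mm9. Bcat1, which transaminates branched-chain amino acids, had 47949 at 6 h and 194 at 1 h, with 182 and 176 in untreated cells (adjusted p = 0.000441). Pycr1, of proline synthesis, had 3886 at 6 h and 107 at 1 h (adjusted p = 0.000709). The cationic amino acid transporter Slc7a3 had 18827 at 6 h and 622 at 1 h (adjusted p = 0.00104). Asns, asparagine synthetase, had 66327 at 6 h and 4384 at 1 h, with 3995 and 4112 in untreated cells (adjusted p = 0.00129). The transcript of Atf4 itself was within 2-fold, at 130990 at 6 h and 97301 at 1 h, and is named here outside the rule after its value was seen. With IFNb Cth had 21175 at 6 h and 85.9 at 1 h, and Bcat1 52773 at 6 h and 163 at 1 h.

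The composite element of ATF4 and C/EBP factors, TGATGNAAN, was found in 26.7% of the windows of this list, against 3.95% of all windows and 2.61% of those of measured genes. The list names known ATF4 targets, so this share is no independent evidence. The windows of Pycr1 (chr11:120643803-120643891, minus strand), Asns (chr6:7693210-7693272, minus strand) and Chac1 (chr2:119351008-119351096, plus strand, element on the opposite strand) carry it, in capitals.
Pycr1: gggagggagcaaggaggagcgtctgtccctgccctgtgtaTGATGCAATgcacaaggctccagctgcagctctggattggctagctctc
Asns: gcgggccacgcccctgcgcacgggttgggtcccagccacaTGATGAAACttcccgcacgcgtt
Chac1: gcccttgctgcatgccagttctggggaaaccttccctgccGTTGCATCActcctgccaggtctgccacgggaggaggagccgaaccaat
Among the promoters of genes at least 8-fold higher at 6 h, 4.61% of windows held the element (10 of 217). Among those at least 8-fold lower 0.939% did (4 of 426). Windows of measured genes, from which both sets come, had 2.61%. Both sets were drawn by the difference described here. The higher set includes members of the ATF4 list such as Pycr1 and Asns, so these shares are no independent evidence.

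Aminoacyl-tRNA synthetases, which charge tRNAs with amino acids, moved together: 19 of 20 were at least 2-fold higher and 0 lower, against 17.0% and 18.1% of all genes. The median was 1.98, and limma called 18 up and 0 down (14 up and 0 down with slide as a block). Farsb had 19484 at 6 h and 2388 at 1 h, with 3011 and 2852 in untreated cells (adjusted p = 0.000812). Gars and Eprs rose as well, with differences of 2.68 and 2.46 (adjusted p = 0.00217 and 0.00220). Wars, which interferon also induces, had 16009 at 6 h and 2899.7 at 1 h, but 17688 at 6 h and 12827 at 1 h with IFNb, and did not pass (adjusted p = 0.145). In 38.5% of the windows of this list the composite element was found, 5 of 13 windows. The share was 3.95% of all windows and 2.61% of those of measured genes. These are again counts of letters and not of bound sites, and they are no evidence for a regulator.

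The MYC network and ribosome biogenesis list had 40 of 48 members at least 2-fold higher and 4 lower, against 17.0% and 18.1% of all genes. The median was 1.86, and limma called 41 up and 4 down, 33 and 2 with slide as a block. Polr1b, a subunit of RNA polymerase I, had 30569 at 6 h and 3405 at 1 h, with 2705 and 2844 in untreated cells (adjusted p = 0.00129). The ribosome assembly factor Nop16 had 76686 at 6 h and 10579 at 1 h, with 4297 and 4175 in untreated cells (adjusted p = 0.00108). Rrp1b had 19521 at 6 h and 2791 at 1 h (4 probes from 0.21 to 3.44). The members against the list were all antagonists of MYC that share its partner Max. Mxd4 had 123 at 6 h and 4846 at 1 h, with 10323 and 10257 in untreated cells, and was 39.5-fold lower (adjusted p = 0.00192, 3 probes from -5.59 to -1.42). Mxd1, Mxi1 and Mxd3 fell with differences of -2.63, -1.56 and -1.41 (adjusted p = 0.00808, 0.00911 and 0.0323). The E-box CACGTG was in 31.2% of this list's windows, 7.15% of all windows and 9.11% of those of measured genes. The list was drawn up around MYC, so this share is no independent evidence. Windows are printed for a member on each side, Nop2, a nucleolar methyltransferase (chr6:125131783-125131868, plus strand), and Mxd4 (chr5:34187884-34187960, minus strand), with the E-box in capitals.
Nop2: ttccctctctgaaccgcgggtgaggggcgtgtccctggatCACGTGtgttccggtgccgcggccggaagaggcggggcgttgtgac
Mxd4: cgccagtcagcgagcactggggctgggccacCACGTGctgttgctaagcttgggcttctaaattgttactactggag
Nop2, higher at 6 h, and Mxd4, lower, thus share these letters.

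Polyamine and nucleotide synthesis had 24 of 36 at least 2-fold higher and 2 lower, against 17.0% and 18.1% of all genes. The median was 1.58, and limma called 24 up and 2 down (20 up and 1 down with slide as a block). Cad, which starts pyrimidine synthesis, had 20412 at 6 h and 2105 at 1 h, with 2754 and 2792 in untreated cells (adjusted p = 0.00186, 4 probes from 0.48 to 3.46). Pfas, of purine synthesis, had 5621 at 6 h and 605 at 1 h (adjusted p = 0.000790). Shmt1, which feeds the folate cycle, had 19626 at 6 h and 2302 at 1 h, with 273 and 289.6 in untreated cells (adjusted p = 0.00136). Srm, spermidine synthase, was higher at each step, with 177850 at 6 h, 22068 at 1 h and 4164 and 4553 in untreated cells (adjusted p = 0.00103). Odc1, which makes putrescine, was already high at 1 h, with 265910 at 6 h and 207950 at 1 h, and 86664 and 86479 in untreated cells. Rrm2, a subunit of ribonucleotide reductase, which makes deoxynucleotides, fell, with 266 at 6 h and 1150 at 1 h (adjusted p = 0.0139).

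In glycolysis and lactate export 20 of 27 were at least 2-fold higher and 2 lower, against 17.0% and 18.1% of all genes. The median was 1.61 (1.22 with quantile normalization to 2.48 under the scanner files' naming), with 18 up and 3 down in limma (14 up and 0 down with slide as a block). Hk2, the inducible hexokinase, had 63476 at 6 h and 2177 at 1 h, with 696 and 700.2 in untreated cells, and was 29.2-fold higher (limma 4.91 ± 0.24, adjusted p = 0.000531). Tpi1, triosephosphate isomerase, had 249290 at 6 h and 11915 at 1 h (adjusted p = 0.000608, 2 probes from 2.02 to 4.39). Pfkl, the liver-type phosphofructokinase, had 10263 at 6 h and 900.3 at 1 h, and Pgk1 310010 at 6 h and 43439 at 1 h. The muscle form Pfkm went the opposite way, with 343 at 6 h and 766 at 1 h, and Pfkfb4 had 665 at 6 h and 1484 at 1 h (adjusted p = 0.0152 and 0.0243). Slc2a1, the glucose transporter GLUT1, had 100480 at 6 h and 31850 at 1 h, with 14310 and 13998 in untreated cells (adjusted p = 0.00410).

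Of 37 genes of the respiratory chain and mitochondrial growth, 19 were at least 2-fold higher and 0 lower, against 17.0% and 18.1% of all genes. The median was 1.11 (0.72 with quantile normalization to 1.29 scaled to array medians), and limma called 24 up and 0 down (12 up and 0 down with slide as a block). Slc25a33, a pyrimidine carrier, had 25897 at 6 h and 2903 at 1 h (adjusted p = 0.000824). Tomm40, the pore of the outer membrane, had 10775 at 6 h and 1698 at 1 h, and Timm9 47150 at 6 h and 7681 at 1 h (3 probes from 0.15 to 2.62). Of 32 chaperones, 11 were at least 2-fold higher and 3 lower, against 17.0% and 18.1% of all genes. The median was 0.70 (0.37 with quantile normalization to 0.98 under the scanner files' naming), and limma called 14 up and 3 down (8 up and 0 down with slide as a block). Hspd1 and Hspa9, the mitochondrial HSP60 and HSP70, had 248330 and 171400 at 6 h, against 53127 and 46243 at 1 h (adjusted p = 0.00262 and 0.00355). The stress-inducible Hspa1a and Hspa1b fell, with 598 and 189 at 6 h and 3461 and 879 at 1 h. These 2 genes are near-identical, so their probes may share signal.

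The cholesterol and fatty acid list had 11 of 34 at least 2-fold higher and 8 lower, against 17.0% and 18.1% of all genes. The median was 0.08 (0.00210 by the median of a gene's probes to 0.53 under the scanner files' naming), and limma called 14 up and 6 down (8 up and 2 down with slide as a block). Acaca, which commits acetyl-CoA to fatty acids, had 5841 at 6 h and 990.5 at 1 h (adjusted p = 0.0249, 3 probes from 0.49 to 2.56). The sterol exporters fell. Abcg1 had 912 at 6 h and 11688 at 1 h, with 13617 and 13535 in untreated cells (adjusted p = 0.000821), and Abca1 118 at 6 h and 1322 at 1 h (adjusted p = 0.00146). Elovl6 had 309 at 6 h and 1761 at 1 h, and 264 at 6 h and 14385 at 1 h with IFNb (adjusted p = 0.00906). Scd1 and Mvk fell with differences of -1.84 and -2.15.

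In the cell cycle list 13 of 37 were at least 2-fold lower and 5 higher, against 18.1% and 17.0% of all genes. The median was −0.60, and limma called 12 down and 3 up (2 up and 6 down with slide as a block). The 3 that rose, Cdk4, Cdk6 and the phosphatase Cdc25a, act on entry into the cycle. Cdk4 had 37544 at 6 h and 6188 at 1 h, with 5786 and 5652 in untreated cells (adjusted p = 0.00108). Ccnd2, cyclin D2, had 115970 at 6 h and 28849 at 1 h, with 15092 and 15031 in untreated cells, and 151440 at 6 h and 97442 at 1 h with IFNb (adjusted p = 0.119). Cdkn2d, which encodes the cycle inhibitor p19INK4d, had 775 at 6 h and 17680 at 1 h (adjusted p = 0.000673). Rbl2, the p130 pocket protein of quiescent cells, had 332 at 6 h and 4054 at 1 h (adjusted p = 0.000821). E2f2 fell too, with 285 at 6 h and 2017 at 1 h.

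Of 36 genes of the TCR complex and its proximal signalling, 12 were at least 2-fold lower and 3 higher, against 18.1% and 17.0% of all genes. The median was −0.45 (−0.69 with quantile normalization to −0.27 scaled to array medians), and limma called 13 down and 4 up (0 up and 8 down with slide as a block). Grap2, the adaptor GADS, had 580.4 at 6 h and 12491 at 1 h, with 6547 and 6726 in untreated cells (adjusted p = 0.00318, 2 probes from -4.43 to -0.91). Dgka, the diacylglycerol kinase that limits Ras signalling, had 5916 at 6 h and 91948 at 1 h, with 101040 and 101930 in untreated cells (adjusted p = 0.000720). The negative regulators Sla2 and Sit1 fell, with 409 and 282 at 6 h, against 4674 and 2739.9 at 1 h (adjusted p = 0.000789 for Sla2 with 2 probes from -3.52 to -0.90, and 0.00370 for Sit1). The kinase Fyn rose, with 8933 at 6 h and 2956 at 1 h (adjusted p = 0.0211). Sla, the adaptor SLAP, had 139300 at 6 h and 43884 at 1 h, and did not pass (adjusted p = 0.0998). Plcg1 was 2.08-fold higher by its brightest probe and −0.32 by the median of its 2 probes. Rasgrp2, a Rap1 activator outside the list, was well above background at 1 h only, at 1399, and was at least 56.0-fold lower at 6 h (adjusted p = 0.000590).

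Of 33 apoptosis and survival genes, 9 were at least 2-fold higher and 10 lower, against 17.0% and 18.1% of all genes. The median was 0.09 (−0.39 by the median of a gene's probes to 0.28 scaled to array medians), and limma called 7 up and 8 down (4 up and 3 down with slide as a block). Bid, a death agonist, had 21783 at 6 h and 2486 at 1 h (adjusted p = 0.00142), and Cflar, the caspase-8 inhibitor FLIP, 49348 at 6 h and 7127 at 1 h (adjusted p = 0.00692), though its 6 probes spanned −0.61 to 2.89. The BH3-only gene Pmaip1, or Noxa, fell, with 1205 at 6 h and 9290.1 at 1 h (adjusted p = 0.000816). The initiator caspase Casp9 fell, with 244 at 6 h and 883 at 1 h (adjusted p = 0.00510). Birc3, an inhibitor of apoptosis, fell with a difference of -1.32 (adjusted p = 0.0298). Bcl2l11, or BIM, and Bmf fell as well, with differences of -1.42 and -2.27 (adjusted p = 0.0326 and 0.0420). Gadd45g had 2763 at 6 h and 38411 at 1 h, with 1012 and 1021 in untreated cells, and did not pass (adjusted p = 0.178).

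In the cytokine signalling list 11 of 30 were at least 2-fold lower and 3 higher, against 18.1% and 17.0% of all genes. The median was −0.35 (−0.78 under the scanner files' naming to −0.16 scaled to array medians), and limma called 11 down and 2 up (2 up and 7 down with slide as a block). The interferon gamma receptor chain Ifngr2 had 457 at 6 h and 6738 at 1 h, with 8778 and 8348 in untreated cells (adjusted p = 0.00111). Tgfbr2, of the TGF-beta receptor, had 2762 at 6 h and 21062 at 1 h (adjusted p = 0.00182, 3 probes from -2.93 to 0.00), and its feedback inhibitor Smad7 1779 at 6 h and 17019 at 1 h (adjusted p = 0.000987). Socs3, a suppressor of cytokine signalling, had 1160.1 at 6 h and 6377 at 1 h, with 11727 and 11572 in untreated cells (adjusted p = 0.00463). Jak2 rose, with 83351 at 6 h and 13826 at 1 h (adjusted p = 0.00285).

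Antiviral genes were lower at 6 h as a list in the pair without IFNb. Of 39, 19 were at least 2-fold lower at 6 h and 3 higher, against 18.1% and 17.0% of all genes. The median was −0.98 (−6.35 under the scanner files' naming to −0.80 scaled to array medians). Across both arms limma called 21 down and 0 up (0 up and 11 down with slide as a block). With IFNb 37 members were at least 2-fold lower and the median was −3.48. The limma calls here thus do not test the cells without IFNb alone. Samd9l had 225 at 6 h and 2899.6 at 1 h, with 2976 and 2825 in untreated cells (adjusted p = 0.000789). Ddx58, the RNA sensor RIG-I, had 165 at 6 h and 1195 at 1 h, with 1496 and 1484 in untreated cells (adjusted p = 0.00302, 4 probes from -3.69 to -1.47). Irf7 had 259 at 6 h and 1723 at 1 h (adjusted p = 0.00843). The 3 that were higher, Iigp1, Gbp2 and Ifi44, include 2 GTPases that interferon gamma induces. Iigp1 had 7486 at 6 h and 188 at 1 h, with 258 and 248 in untreated cells, and Gbp2 35579 at 6 h and 6439 at 1 h, with 7948 and 7766. Neither passed across both arms (adjusted p = 0.419 and 0.992), and both depend on the naming of the 1 h arrays, since under the scanner files' naming Iigp1 was −2.31 and Gbp2 −2.60. Cxcl9, an interferon gamma target and chemokine, was higher at both steps, with 4113 at 6 h, 119.9 at 1 h and 54.7 and 57.9 in untreated cells (adjusted p = 0.00574).

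Several of the largest differences fell outside these lists. Rflnb, or refilin B, an actin-bundling partner of filamin, had 34.3 at 6 h and 4506 at 1 h, with 18692 and 17999 in untreated cells, and was 131-fold lower (adjusted p = 0.000790). The protease Prss12 had 28.7 at 6 h and 2108 at 1 h, and Pde2a, a cyclic nucleotide phosphodiesterase, 251 at 6 h and 11320 at 1 h (adjusted p = 0.000531 for Prss12, and 0.000531 for Pde2a with 2 probes from -5.50 to -1.83). Ggt1, gamma-glutamyltransferase, was well above background at 1 h only, at 1577, and was at least 63.1-fold lower (adjusted p = 0.000547). Ampd1, AMP deaminase, was at least 53.9-fold lower (adjusted p = 0.000546). On the other side, Mmp13, a collagenase, was well above background at 6 h only, at 2834, and was at least 108-fold higher (adjusted p = 0.000948). The adenylate kinase Ak4 had 2779 at 6 h and was at least 106-fold higher, and Aldh1l2, of mitochondrial folate metabolism, was at least 18.3-fold higher (adjusted p = 0.00153 and 0.000531). Ncs1, a calcium sensor, had 4727 at 6 h and 62.6 at 1 h, and Dgat2, which makes triglycerides, 29487 at 6 h and 805 at 1 h (adjusted p = 0.000719 for Ncs1 with 3 probes from 2.16 to 6.24, and 0.000570 for Dgat2). Akr1c18, a steroid dehydrogenase that inactivates progesterone, had 3186 at 6 h and 51.0 at 1 h (adjusted p = 0.000531), and Car12, a carbonic anhydrase, 5297 at 6 h and 151 at 1 h (adjusted p = 0.00498, 2 probes from 1.14 to 5.13). Alcam, the ligand of CD6, was 38.0-fold higher (adjusted p = 0.000546).

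**Figure D4:**
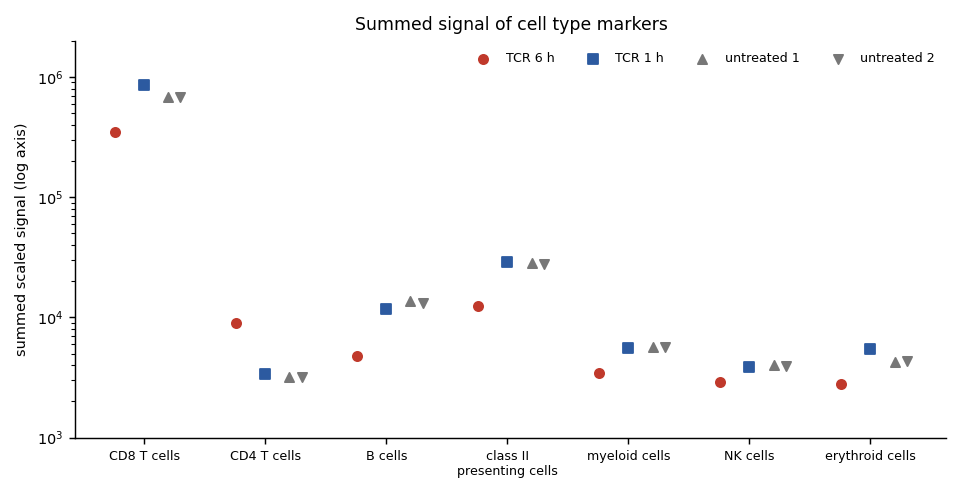
Summed scaled signal (log axis) of the markers of 7 cell types on the TCR 6 h array, the TCR 1 h array and the 2 untreated arrays. At 6 h the sum was below 1 h for 6 of the 7 types, CD8 T cells included, and above it for the CD4 T cell list, whose Tnfsf8 rose.

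The summed marker signal was lower at 6 h for CD8 T cells and 5 other cell types and higher for the CD4 T cell list. Limma called down 7 of 9 CD8 T cell markers, 3 of 9 of B cells, 1 of 10 each of class II presenting, myeloid and NK cells and 0 of 5 of erythroid cells. The share of all genes called down was 16.2%. With slide as a block limma called down 3 CD8 T cell markers and 1 each of myeloid and NK cells. That fit called down 0 of B, class II presenting and erythroid cells, against 7.15% of all genes. Of the 6 members of the CD4 T cell list limma called Tnfsf8 up and Cd40lg down, and only Tnfsf8 kept its call with slide as a block. In the pair 18.1% of all genes were at least 2-fold lower and 17.0% higher, and the marker counts below stand beside these shares. The CD8 T cell markers Cd8a, Cd8b1, Cd3d, Cd3e, Cd3g, Cd247, Lck, Thy1 and Cd2 summed to a signal of 350570 at 6 h and 859870 at 1 h, with 680050 and 680350 in untreated cells, 7 of 9 were at least 2-fold lower and all 9 were well above background on both arrays. B cell markers summed to 4786 at 6 h and 11794 at 1 h, with 4 of 9 at least 2-fold lower and 1 higher, and markers of class II presenting cells to 12537 at 6 h and 28848 at 1 h, with 7 of 10 lower and 0 higher. Myeloid markers summed to 3473 at 6 h and 5543 at 1 h (5 of 10 lower), NK cell markers to 2881 at 6 h and 3883 at 1 h (5 of 10 lower, 1 higher), and erythroid markers to 2772 at 6 h and 5465 at 1 h (2 of 5 lower, 1 higher). The CD4 T cell list summed to 8914 at 6 h and 3395 at 1 h, but only Tnfsf8 of its 6 members was at least 2-fold higher. Cd40lg was lower, 4 were within 2-fold, and the median difference was 0.04 (−0.03 by the median of a gene's probes to 0.23 scaled to array medians). The NK marker Ncr1 was not well above background on either array. Cd4 had a signal of 149.8 at 6 h and 143 at 1 h, and Foxp3 72.8 at 6 h and 77.2 at 1 h. The part of any of these in the lower class II, antiviral or naive transcripts was not tested.

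In cells given IFNb the same comparison of 6 h against 1 h, on 2 other arrays of the same slides, found 3895 genes at least 2-fold higher (20.0%) and 4319 lower (22.2%), 42.2% of 19475, and 5958 higher and 3153 lower with arrays scaled to their medians. Of the 6837 genes called without IFNb, 6389 had the same sign with IFNb, 4986 were at least 2-fold the same way and 113 the opposite way. The medians of the growth lists were 2.46 without and 2.95 with IFNb for the ATF4 programme, 1.86 without and 2.18 with IFNb for ribosome biogenesis, and 1.61 without and 1.87 with IFNb for glycolysis. The antiviral list had a median of −0.98 without IFNb and −3.48 with it. For NF-kB the medians were −1.06 without and −0.13 with IFNb, and for cytokines 0.09 without and 0.85 with IFNb. The interaction model that follows has the difference between IFNb for 2 h and for 7 h as its only residual. It therefore cannot show that the arms agree. In the interaction model of limma, which has 1 residual degree of freedom, 0 of 19358 genes differed between the arms at an adjusted p below 0.05 and 1373 did at an unadjusted p below 0.05, so no gene's difference between the arms passed.

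**Figure D5:**
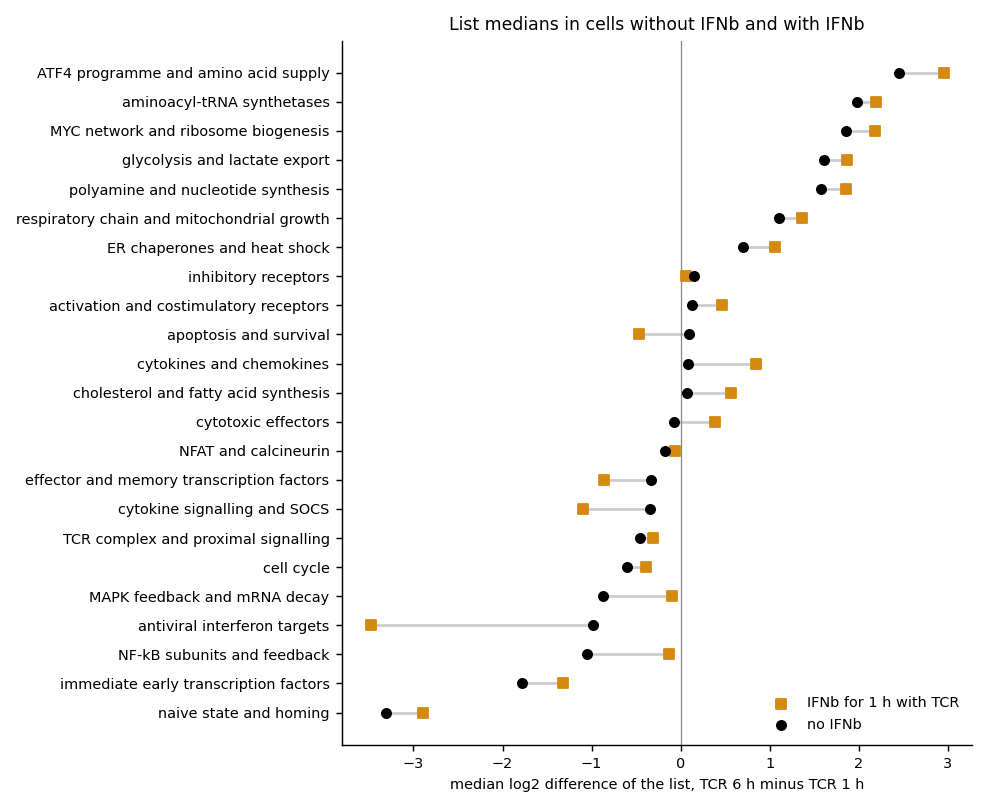
Median log2 difference of TCR 6 h minus TCR 1 h for each list in cells without IFNb (black circles) and in cells given IFNb for 1 h with TCR (orange squares), 1 array at each time. The antiviral list is the farthest apart, at −0.98 without and −3.48 with IFNb.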

How the data were processed

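RNA was labelled with Alexa Fluor 555 and hybridised to 8 Agilent mouse arrays in 1 colour (2 slides of 4 arrays), per the labels' protocols and the file headers. Processed signal in the scanner files is a linear intensity after background subtraction within each array, per the file headers (Feature Extraction 10.7.3.1, build mm9; 9.5.3.1 per the submitters' processing notes). The deposited value table also holds intensity: checked against the scanner files, each column is 1 array's signal multiplied by a constant that puts its 75th percentile near 1500, with a floor of 15. Its columns for TCR 1 h and IFNb with TCR 1 h match each other's scanner file, and its naming was kept. Column medians were 89.6, 92.6, 95.8, 92.2, 80.7 and 73.8 for untreated 1, TCR 1 h, IFNb with TCR 1 h, untreated 2, TCR 6 h and IFNb with TCR 6 h, and 102 and 101 for IFNb for 2 h and for 7 h. Between 26065 and 29533 of 43379 non-control spots per array were well above background, and the number of arrays limits the precision.

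Outlier spots were left out, repeated spots averaged on the log2 scale, and probes had to be well above background on 2 or more of 8 arrays (28571 of 41174 probes). Genes (19530) were represented by their brightest probe. Accessions matched 26690 probes to the RefSeq table, and 14484 kept the file's name or a synonym. The array's names can be old. A gene well above background on only 1 of the 2 arrays was given as "at least N-fold", against the higher of the dim array's lowest signal well above background and the probe's own signal. Differences were called at 2-fold. The linear model was made in limma 3.58.1 in R 4.3.3 with terms for IFNb, TCR 1 h and TCR 6 h, Benjamini-Hochberg adjustment over all genes and a threshold of 0.05. The 2 untreated arrays differed by about the noise between repeated spots (robust SD of 0.034 against 0.0331 expected, plain SD 0.0531), and were averaged to 1 sample. Values after ± are standard errors. Plots were made with matplotlib 3.10.9 in Python 3.11.15.

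Named genes were the 12 largest differences in each direction well above background on both arrays, the 6 largest bounds in each direction, the 4 largest of each of 23 lists, members at least 2-fold against their list's median, up to 5 genes of each course class, and a fixed set of 30 genes; 218 in all, some of which are not reported here. Members, lists and rules were chosen with earlier results of these data known.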

Additional observations from a re-analysis of the deposited data

Results flagged for a closer look

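For 5 named genes the difference of 6 h minus 1 h had opposite signs in the 2 arms, with 1 array at each time in each arm. Iigp1 was 5.32 higher on the log2 scale without IFNb and −1.66 with IFNb (interaction model of limma, adjusted p = 0.695). Gbp2 was 2.47 without IFNb and −2.42 with it (limma adjusted p = 0.692), and Mgarp 4.43 without IFNb and −1.80 with it (limma adjusted p = 0.693), with Mgarp well above background at 6 h only in cells without IFNb. Eomes was 1.63 without IFNb and −1.35 with it (limma adjusted p = 0.689). Tnfsf9, the ligand of 4-1BB, was −1.24 without IFNb and 1.16 with it (limma adjusted p = 0.689). The only residual of the interaction model is the difference between IFNb for 2 h and for 7 h. It has 1 residual degree of freedom, and none of the 5 passed. All of them but Mgarp also change sign in cells without IFNb when the 1 h array is taken by the scanner files' naming.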

How the results depend on the processing

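Depth is limited by having 1 array per treated group: differences of the pair have no replicate check, dim probes have bounds only, and slide and TCR time are separated only through the untreated and IFNb-only arrays. No paired analysis was possible because only the untreated arrays carry replicate numbers. Of the 218 named genes 168 had a limma call, 125 of them kept it with slide as a block and 113 in every fit that left out 1 array. With slide as a block the limma count was 3099 against 6480, with no filter on background 3960 (61.3% higher), and in the interaction model for cells without IFNb 0, with 5718 genes at an unadjusted p below 0.05 and 1 residual degree of freedom. Leaving out 1 array at a time gave between 2924 and 6490, with 2924 without IFNb with TCR 6 h, 3150 without IFNb with TCR 1 h, 4206 without TCR 1 h and 4324 without TCR 6 h. A lone array at its time was assumed to vary like the others. After normexp correction and quantile normalization the pair had 4422 genes at least 2-fold apart (2082 higher, 2340 lower) against 6837, and the pair given IFNb 5198 against 8214. The scanner files' naming gave 8424 for the pair and 5443 in limma. With a 4-fold threshold 134 genes were up and then lower, 23 up and then higher, 852 within the threshold and then higher, and 1106 within it and then lower. Values of single genes that changed sign under the scanner files' naming were −2.31 for Iigp1, −2.60 for Gbp2, −3.59 for Ifi44, −1.30 for Eomes, −0.25 for Slfn2, 0.0205 for Tgfb1, 2.12 for Tnfsf9, 0.63 for Tnfsf14, 0.11 for Sema7a and 0.067 for Gadd45b. With the median over a gene's probes they were −0.34 for Nfkb1, 0.29 for Ppp3r1 and −0.32 for Plcg1. Against the untreated array of the same slide 208 of the 218 differences moved by less than 1 SD of the untreated difference (0.28), 148 did with quantile normalization, 71 with normexp and quantile normalization, and 46 under the scanner files' naming, where 15 of 30 list medians moved by over 1 SD. Of the 23 gene lists, those of NFAT, activation receptors, inhibitory receptors, cytotoxic and apoptosis genes changed the sign of their median under at least 1 setting. The cause of these changes was not tested.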
